A study of Mus musculus with 6 samples.

Results

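The isocitrate dehydrogenases and the main enzymes of the citrate cycle were followed in C2C12 myotubes given the saturated fatty acid palmitate. The 9 genes were Idh1, Idh2, Idh3a, Idh3b, Idh3g, Cs, Ogdh, Mdh2 and Fh1, and every probe set annotated with one of these symbols alone was taken, which gave 17 of the 22626 probe sets of the array that are not controls. All 17 passed the filter on dim probe sets, which kept 13575. A probe set is a group of short probes read together as a single signal. Idh3a and Cs had 3 probe sets each, 4 genes had 2 (Idh1, Idh3b, Idh3g and Mdh2), and Idh2, Ogdh and Fh1 had 1.

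C2C12 is an established mouse myoblast line, so all 6 arrays read 1 line. Its myotube genes were well measured: all 12 on a list from Acta1 and Ckm to Myog passed the filter, with mean log2 signals of 9.37 to 15.5 with BSA. The myoblasts were grown in 20% fetal bovine serum and differentiated for 5 days in 2% horse serum, and both groups carry this history and no genetic change is given in the labels. Myotubes of the palmitate group (3 arrays) then received 500 µM palmitate for 16 h, and those of the control group (3 arrays) received 1% bovine serum albumin (BSA), the carrier of the fatty acid, for the same time. The labels give a BSA concentration for the controls only. They number the replicates without saying that they were separate cultures. The p-values thus weigh a group difference only against the variation among these samples, and that variation may be technical.

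In the citrate cycle of the mitochondrial matrix, citrate synthase (Cs) joins acetyl-CoA, the end product of fatty acid oxidation, to oxaloacetate. Isocitrate is oxidised to 2-oxoglutarate by an NAD-linked enzyme built from the products of Idh3a, Idh3b and Idh3g, after which oxoglutarate dehydrogenase (Ogdh), fumarase (Fh1) and malate dehydrogenase (Mdh2) carry out later steps. Idh1 and Idh2 encode the NADP-linked isocitrate dehydrogenases, of the cytosol and peroxisomes and of the mitochondria respectively, which make NADPH used for lipid synthesis and for reducing oxidised thiols.

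Signals below are MAS 5 values on a linear scale without a unit. A log2 fold change is palmitate over BSA with its standard error (SE) from limma, n = 3 arrays per group, and an adjusted p is limma's with Benjamini-Hochberg correction over all 13575 probe sets, read at 0.05. "Fell" and "rose" are used only of probe sets past that threshold. Levels are not compared between probe sets, since each binds its target with its own efficiency. Arrays were already scaled to a common average signal (a 2% trimmed mean of 1500.5 to 1500.56), array pairs within a group correlated at 0.943 to 0.959, and pairs between groups at 0.883 to 0.910. The 9 hybridisation control probe sets read labelled RNAs that are added only at the hybridisation step. They were brighter with palmitate by 0.33 log2 units (exact permutation p = 0.1, two-sided, the smallest that this test can give for 3 arrays against 3). Scaling the arrays to these controls lowers every log2 fold change by that amount and moves the median of all probe sets from -0.0083 to -0.34. As a sign of RNA integrity, the log2 signal of the Gapdh control probe set nearest the 3' end minus that of the one nearest the 5' end was -0.20 on palmitate replicate 2 and 0.19 to 0.35 on the other arrays.

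Palmitate-treated myotubes had less Idh1 and Idh2 transcript, and the probe sets of the other 7 genes did not pass. Idh1 was at 16.7% and at 25.2% of its BSA level by its brighter and dimmer probe set, and Idh2 at 46.6%. In bulk samples, fewer cells of a kind and less RNA per cell cannot be told apart. Of the 17 probe sets 3 fell (17.6%) and 0 rose, where 10.6% of all probe sets tested fell and 8.63% rose. Counted as genes, each by its brightest probe set, 2 of 9 fell (22.2%) and 0 rose, beside 12.3% and 7.92% of the 7931 genes tested. The median log2 fold change of the 17 was -0.30, and 14 lay below 0, beside a median of -0.0083 and 50.7% below 0 over all probe sets tested. The groups did not overlap for 10 of the 17 (58.8%), in each case with palmitate lower, beside 19.6% of all probe sets. Several probe sets read the same gene, so the 17 are not separate counts of evidence.

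**Figure D1:**
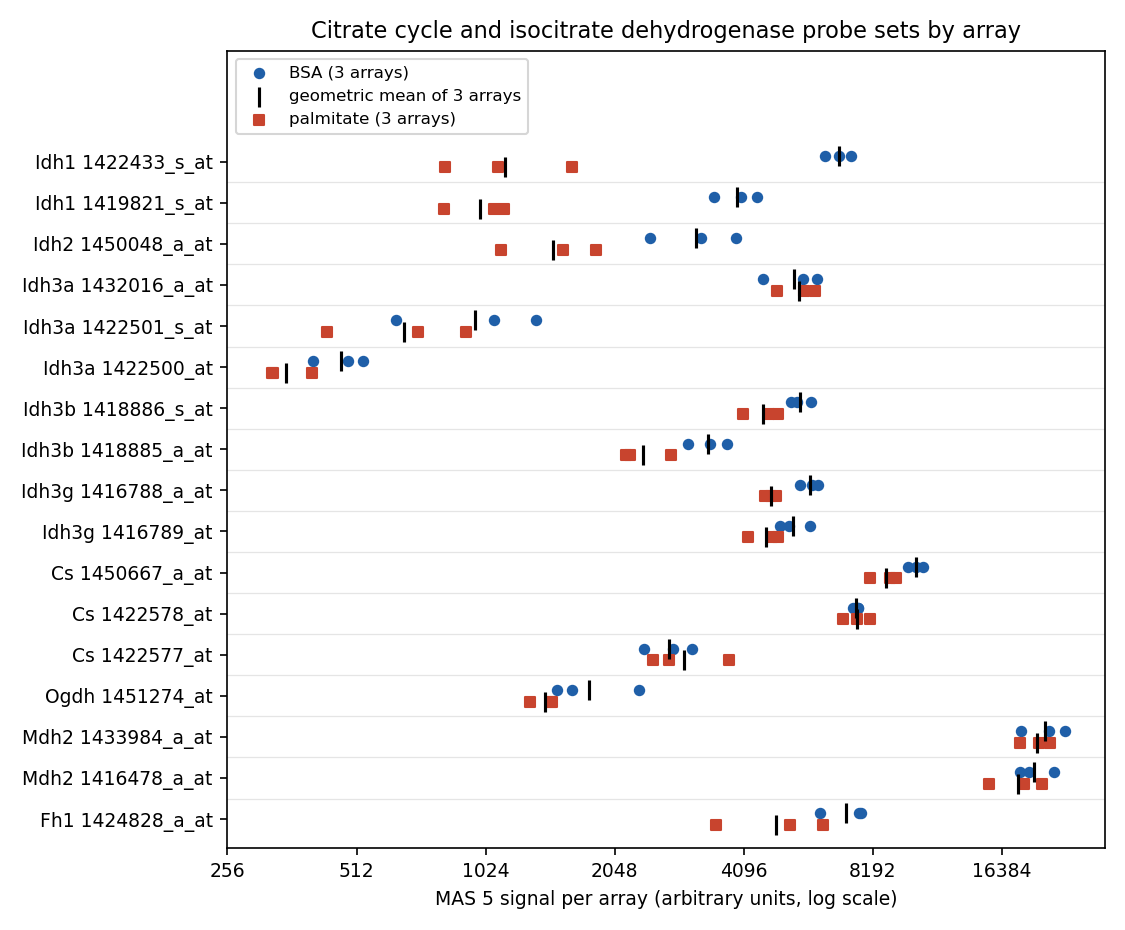
MAS 5 signal of each of the 17 probe sets on each array (horizontal log axis), with BSA arrays as circles, palmitate arrays as squares and the geometric mean of 3 arrays as a black bar. The palmitate arrays of both Idh1 probe sets and of Idh2 lie well to the left of the BSA arrays, while those of Mdh2 and of 2 Cs probe sets overlap them.

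The 250 bases before each annotated start of Idh1 and Idh2 are shown because these were the members that fell. They come from a set of RefSeq promoter windows (GRCm38.p6) that held 8 of the 9 genes, with 14 annotated starts. Idh3a is annotated in RefSeq but had no window in that set. Idh1 has 2 such starts, at the 5′ end of the gene and inside it, on the minus strand of chromosome 1 (gene at chr1:65158616-65186479). The first window is chr1:65186480-65186729 and the second chr1:65179143-65179392. Idh2 lies on the minus strand of chromosome 7 (chr7:80094845-80118608), with a window at chr7:80115351-80115600, whose start lies inside the annotated gene. Sequences run 5′ to 3′ on the gene's strand, and capitals mark GC boxes (GGGCGG or its reverse complement CCGCCC) and CCAAT boxes (CCAAT or its reverse complement ATTGG).
Idh1 first start: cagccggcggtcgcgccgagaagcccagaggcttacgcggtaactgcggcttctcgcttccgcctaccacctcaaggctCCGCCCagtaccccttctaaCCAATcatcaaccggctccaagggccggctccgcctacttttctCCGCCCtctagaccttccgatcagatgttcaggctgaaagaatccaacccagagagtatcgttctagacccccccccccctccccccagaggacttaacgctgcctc
Idh1 second start: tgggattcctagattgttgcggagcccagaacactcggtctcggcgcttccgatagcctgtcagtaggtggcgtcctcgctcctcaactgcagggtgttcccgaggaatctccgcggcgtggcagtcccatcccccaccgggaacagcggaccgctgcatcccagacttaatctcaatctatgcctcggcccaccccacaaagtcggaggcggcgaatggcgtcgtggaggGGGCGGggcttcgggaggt
Idh2: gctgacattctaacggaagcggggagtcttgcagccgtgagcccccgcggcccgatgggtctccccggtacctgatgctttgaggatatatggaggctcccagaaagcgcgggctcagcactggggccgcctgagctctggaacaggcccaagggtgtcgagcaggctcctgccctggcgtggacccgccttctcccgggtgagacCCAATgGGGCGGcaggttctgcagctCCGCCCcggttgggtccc

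The first Idh1 window held 2 GC boxes and 1 CCAAT box, the second held 1 GC box and 0 CCAAT boxes, and the Idh2 window held 2 GC boxes and 1 CCAAT box, with no overlap between matches. On both strands, a GC box stood in 8 of the 14 windows and a CCAAT box in 9, beside 32.7% and 33.8% of all 32851 promoter windows of that length. Some of the 6 Ogdh windows overlap one another, so the 14 are not separate. The cAMP response element (TGACGTCA) was in 4 windows, of Ogdh and Mdh2 (1.55% of all windows), the E-box (CACGTG) in 3 windows of Ogdh (6.02%) and an ETS motif (CCGGAAG) in 1, of Idh3g (6.91%). The motif of NRF1 (3.74%), that of the estrogen-related receptors (TCAAGGTCA, 0.387%), that of FOXO factors (TGTTTAC, 3.17%) and a sterol element (TCACNCCAC, 1.05%) were in 0 of the 14. These are matches of letters in short windows and say nothing of which factors bind.

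Idh1, the cytosolic NADPH-producing enzyme, had the largest change of the 9 genes. Its brighter probe set (1422433_s_at) read 6340.2, 6842.2 and 7278.6 on BSA replicates 1 to 3, and 1094.8, 823.8 and 1631.2 on palmitate replicates 1 to 3. The highest palmitate array was thus far under the lowest BSA array. Its mean signal was 6820 ± 469.6 with BSA and 1183 ± 410.9 with palmitate (SD, n = 3), and it fell 5.99-fold (log2 fold change -2.58 ± 0.22, adjusted p = 1.88e-05). That was the 23rd lowest log2 fold change among the 13575 probe sets. The dimmer probe set (1419821_s_at) read 3484.6, 4040.9 and 4392.4 with BSA and 1069.7, 1130.7 and 817.2 with palmitate, again without overlap. It fell 3.97-fold (log2 fold change -1.99 ± 0.19, adjusted p = 3.26e-05), and its 95% interval, -2.40 to -1.58, overlapped that of the brighter probe set, -3.07 to -2.09. On the brighter probe set palmitate replicate 3 was the highest palmitate array and replicate 2 the lowest. On the dimmer probe set replicate 2 was the highest and replicate 3 the lowest. Both calls held without each array in turn, with log2 fold changes of -2.84 to -2.35 and -2.08 to -1.85. Without palmitate replicate 2, the array with the low Gapdh value, they were -2.35 and -2.08. Both Idh1 probe sets carry the suffix s, which Affymetrix gives to probe sets whose probes match more than one transcript, so part of either signal could come from another transcript.

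Idh2, its mitochondrial counterpart, read 3922.4, 3258 and 2480.8 with BSA and 1113.6, 1855.3 and 1549.9 with palmitate on its probe set (1450048_a_at). The groups did not overlap, and the BSA arrays spread from 2480.8 to 3922.4. The mean was 3220 ± 721.5 with BSA and 1506 ± 372.8 with palmitate (SD, n = 3), a fall of 2.15-fold (log2 fold change -1.10 ± 0.23, adjusted p = 0.00588). Leaving out 1 array moved the log2 fold change over -1.28 to -0.90, with an adjusted p of at most 0.0309.

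Markers of other cell states differed between the groups alongside Idh1 and Idh2. The myotube list had 0 of 12 genes past the threshold, and its summed signal was 201574 to 297015 with BSA and 225862 to 236805 with palmitate. Of these 12, 8 lay below 0, beside 54.1% of all genes tested. Their log2 fold changes ran from -0.94 ± 0.34 (Actn2, adjusted p = 0.0758) to 0.083, at a median of -0.17. For the lists that follow, 12.3% of all genes tested fell. Of 8 genes of myoblasts and cycling cells, 5 of the 7 tested fell, among them Mki67 (-1.59 ± 0.17) and Myod1 (-1.33 ± 0.16), and the summed signal was 25835 to 28182 with BSA and 12913 to 14130 with palmitate. Of 8 fibroblast genes, all 6 tested fell, among them Pdgfrb (-2.97 ± 0.19), with sums of 99628 to 120598 and 27560 to 32622. The 5 endothelial genes, 3 of the 6 macrophage genes and 3 of the 4 adipocyte genes on the array lay below the filter, and 0 of the remaining 4 passed. The part of these cell states in the fall of Idh1 and Idh2 was not tested.

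The signal of Idh1 relative to each other gene was also compared within arrays. Scaling a whole array by a common factor does not alter this ratio, though quantile normalization can. Idh1 minus Idh2 was 1.11 ± 0.43 log2 units with BSA and -0.37 ± 0.69 with palmitate (SD, n = 3), and the difference between groups was -1.48. Against the other 7 genes the difference ran from -2.62 (Idh3a) to -2.04 (Fh1). All 8 pairs separated the groups without overlap. Each had an exact permutation p = 0.1 (two-sided, the smallest possible, and 0.1 after adjustment over the 8 pairs). This test therefore cannot pass 0.05 with 3 arrays against 3, and no other test was run on the ratios. Idh1 was chosen as the reference with its fall known, and all 8 pairs share its values. The 8 are thus not separate, since the fall of Idh1 alone can separate the groups against any gene that changed much less. How many of all genes would separate against Idh1 was not counted.

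**Figure D2:**
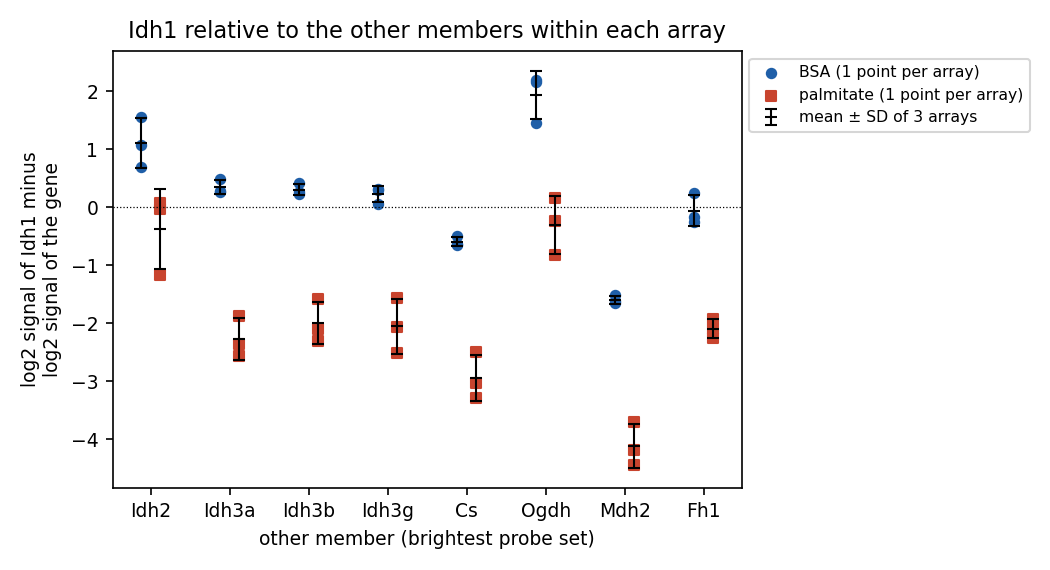
Log2 signal of Idh1 minus that of each other gene (brightest probe sets) on each array, with the mean and SD of 3 arrays per group. Every palmitate array lies below every BSA array for all 8 genes, and the gap is smallest for Idh2 (-1.48 between the group means). The 8 comparisons share the same Idh1 values.

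The 3 subunit genes of the NAD-linked enzyme had 7 probe sets with log2 fold changes of -0.56 to 0.034, and 0 of the 7 passed. Idh3b, a regulatory subunit, came closest on its dimmer probe set (1418885_a_at), which read 3750.7, 3409.1 and 3037.9 with BSA and 2225.7, 2175.7 and 2776.3 with palmitate. The groups did not overlap, and the log2 fold change was -0.51 ± 0.17 (95% interval -0.88 to -0.14, adjusted p = 0.0540). It passed without palmitate replicate 3 (adjusted p = 0.0486). The brighter Idh3b probe set (1418886_s_at) read 5268.5, 5858.6 and 5456.8 against 4693.7, 4069 and 4922.2, at -0.28 ± 0.14 (adjusted p = 0.205). Here too the palmitate arrays lay below the BSA arrays, by a smaller margin.

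Idh3g, the other regulatory subunit, read 6083.5, 5539.8 and 5908.4 with BSA and 4596.9, 4733.2 and 4859.1 with palmitate on its brighter probe set (1416788_a_at). The log2 fold change was -0.30 ± 0.14 (95% interval -0.60 to -0.0084, adjusted p = 0.143), and the second probe set (1416789_at) was at -0.21 ± 0.15 (adjusted p = 0.362). Neither had overlapping groups and neither passed.

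Idh3a, the catalytic subunit, gave different readings on its 3 probe sets. The brightest (1432016_a_at) read 4527.5, 5634.4 and 6075.5 with BSA and 5656.4, 4902 and 6002.6 with palmitate, fully overlapping, at 0.034 ± 0.16 (95% interval -0.31 to 0.38, adjusted p = 0.907). The next (1422501_s_at) was at -0.56 ± 0.33 with overlapping groups (adjusted p = 0.277), and single arrays moved it from -0.86 (without BSA replicate 1, adjusted p = 0.0920) to -0.32 (without BSA replicate 2) and -0.26 (without palmitate replicate 2). The dimmest (1422500_at) was at -0.43 ± 0.32 (adjusted p = 0.384), and its groups were separated only by the gap between 402.8 (palmitate replicate 1) and 405.6 (BSA replicate 1). Averaged over the 3, Idh3a was at -0.32 ± 0.21 (adjusted p = 0.310), so even the sign of its difference depended on the probe set.

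Citrate synthase, the entry enzyme of the cycle, had 3 probe sets at -0.23, 0.00045 and 0.11. The brightest (1450667_a_at) read 9869, 10737.8 and 10302.5 with BSA and 9000.3, 8077.9 and 9255.4 with palmitate, without overlap, and did not pass (-0.23 ± 0.13, 95% interval -0.51 to 0.049, adjusted p = 0.239). The second (1422578_at) read 7558.2, 7374.2 and 7561.3 against 7499.3, 6981.1 and 8057.4, with an interval of -0.29 to 0.29 (adjusted p = 0.999). The groups overlapped there and on the third (1422577_at, 95% interval -0.30 to 0.53, adjusted p = 0.730).

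Fh1, fumarase, read 7596.5, 7671.2 and 6155.9 with BSA and 5252.9, 3519.8 and 6252.5 with palmitate (1424828_a_at). Palmitate replicate 3 lay above BSA replicate 3, so the groups overlapped, and the log2 fold change of -0.54 ± 0.20 did not pass (95% interval -0.99 to -0.10, adjusted p = 0.0816). Without palmitate replicate 3 it was -0.72 and passed (adjusted p = 0.0383), and without palmitate replicate 2, the array with the low Gapdh value, it was -0.31 (adjusted p = 0.241). Leaving out palmitate replicate 3 therefore changed the calls of Fh1 and of the dimmer Idh3b probe set. Without that array 5 of the 17 probe sets fell, where 7.89% of all probe sets did. Without palmitate replicate 2, 3 of the 17 fell, where 9.47% of all probe sets did.

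Ogdh, which decarboxylates 2-oxoglutarate, read 2327, 1499.5 and 1628.4 with BSA and 1299.9, 1465.5 and 1457.6 with palmitate (1451274_at). The gap between groups was narrow (1465.5 to 1499.5) and BSA replicate 1 stood above the other BSA arrays, and the log2 fold change was -0.34 ± 0.20 (95% interval -0.79 to 0.10, adjusted p = 0.269). Without BSA replicate 1 it was -0.15 (adjusted p = 0.639). Mdh2, malate dehydrogenase, had a first probe set (1433984_a_at) of 18163.2, 21085.1 and 22980 with BSA and 19999.3, 18077 and 21201.9 with palmitate. It was at -0.066 ± 0.13 (95% interval -0.36 to 0.22, adjusted p = 0.772), and the second (1416478_a_at) was at -0.12 ± 0.14 (adjusted p = 0.596). Both had overlapping groups, and the second interval reached from -0.43 to 0.19.

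**Figure D3:**
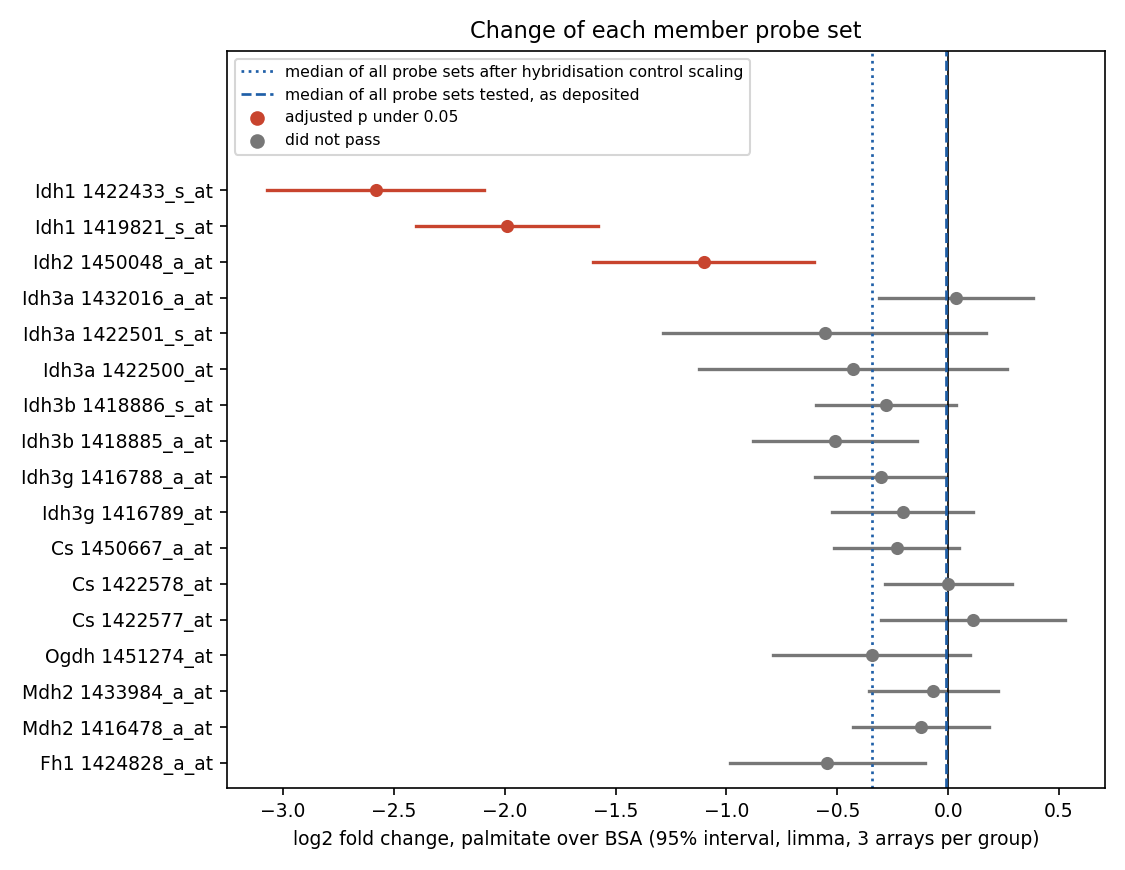
Log2 fold change (palmitate over BSA) of the 17 probe sets with its 95% interval from limma, 3 arrays per group, in red where the adjusted p is under 0.05. The dashed line is the median of all probe sets as deposited (-0.0083) and the dotted line that after hybridisation control scaling (-0.34). The intervals are those as deposited, so only the dashed line is on their scale. Besides both Idh1 probe sets and Idh2, 3 that did not pass have intervals wholly below 0: Idh3b 1418885_a_at, Idh3g 1416788_a_at and Fh1.

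The number of members that passed changed with the scaling of the arrays. After scaling to the hybridisation controls 9 of the 17 probe sets fell, where 23.3% of all probe sets fell, and the median of the 17 was -0.64. As genes by their brightest probe set, 6 of 9 fell there. The share of all genes that fell under this scaling was not computed, so that count has no background beside it. The 6 probe sets that passed there but not as deposited were both of Idh3b, both of Idh3g, the brightest of Cs (-0.57, adjusted p = 0.0197) and that of Fh1 (-0.88, adjusted p = 0.00362). Idh1 (-2.92 and -2.32) and Idh2 (-1.44) passed under both scalings.

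Other enzymes of the cycle lay between -0.47 and 0.18 on the scale of log2 fold change. Over all 7931 genes tested 12.3% fell and 7.92% rose, the background for this list and those that follow. Of 11 tested besides the 9 genes, 1 fell, 0 rose, and 9 lay below 0. Their median was -0.22, beside -0.051 over all genes tested. The call was that of Sdhd, a membrane anchor of succinate dehydrogenase, which read 5879.2, 5747 and 5028.5 with BSA and 3739, 4150.6 and 4141.9 with palmitate (-0.47 ± 0.14, adjusted p = 0.0402). The call was lost whichever array was left out (adjusted p = 0.0559 to 0.137). Sdhb, the iron-sulfur subunit, was at -0.38 ± 0.13 (adjusted p = 0.0668), and Aco1, the aconitase of the cytosol, which makes isocitrate there, at -0.38 ± 0.19 (adjusted p = 0.198).

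Around pyruvate entry, Pdk4 rose alone among 8 genes tested, and 0 fell, at a median of -0.18. Pdk4, a kinase that switches off pyruvate dehydrogenase, read 936.9, 1741.8 and 1366.1 with BSA and 2293.4, 2591.7 and 2658.7 with palmitate (0.94 ± 0.22, adjusted p = 0.0124, and 0.0622 after hybridisation control scaling). The other kinase genes of this family did not rise with it: Pdk3 was at -0.74 ± 0.26 (adjusted p = 0.0643) and Pdk1 at -0.15 ± 0.20 (adjusted p = 0.652). Pdk2 was below the filter and has no test here. Among 6 genes tested on a list drawn up for NADPH production, 2 rose and 0 fell, at a median of 0.035. Which cofactor each of these enzymes uses in these cells was not measured. Pgd of the pentose phosphate pathway read 6078.8, 6480.2 and 5942.3 with BSA and 10122.5, 11296.5 and 13411.9 with palmitate (0.90 ± 0.14, adjusted p = 0.00109). Every palmitate array of Pgd was above every BSA array, on a probe set of the suffix x, whose probes may also bind similar transcripts. Mthfd2, of mitochondrial one-carbon metabolism, was at 0.83 ± 0.18 (adjusted p = 0.00656, and 0.0848 after hybridisation control scaling). The malic enzyme gene Me1 was at 0.047 ± 0.21 (adjusted p = 0.903).

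Of 10 genes that move or use citrate, malate and oxoglutarate, 3 rose and 0 fell, at a median of -0.096. Got1, the cytosolic aspartate aminotransferase, read 2992.2, 2534.5 and 2946.4 with BSA and 5751.1, 8194.6 and 6376.5 with palmitate, without overlap (1.25 ± 0.17, adjusted p = 0.000385). Gpt2, the mitochondrial alanine aminotransferase, rose by 0.94 ± 0.17 (adjusted p = 0.00264), and Acly, which splits cytosolic citrate, by 0.61 ± 0.16 (adjusted p = 0.0183). Gpt2 did not pass with its probe sets averaged (0.54, adjusted p = 0.0737) or after hybridisation control scaling (adjusted p = 0.0523). Acly did not pass there (adjusted p = 0.296) or without palmitate replicate 3 (adjusted p = 0.0789).

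Among 11 regulators of oxidative metabolism 1 rose and 1 fell, at a median of -0.12. Myc, a growth-promoting transcription factor, rose by 1.41 ± 0.14 (adjusted p = 4.77e-05). Foxo1, a transcription factor of fasting, fell by 0.70 ± 0.19 (adjusted p = 0.0235), a call lost without BSA replicate 1 or 2 or palmitate replicate 1 or 2, with an adjusted p of up to 0.0892. The coactivator gene Ppargc1a was below the filter and has no test here.

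**Figure D4:**
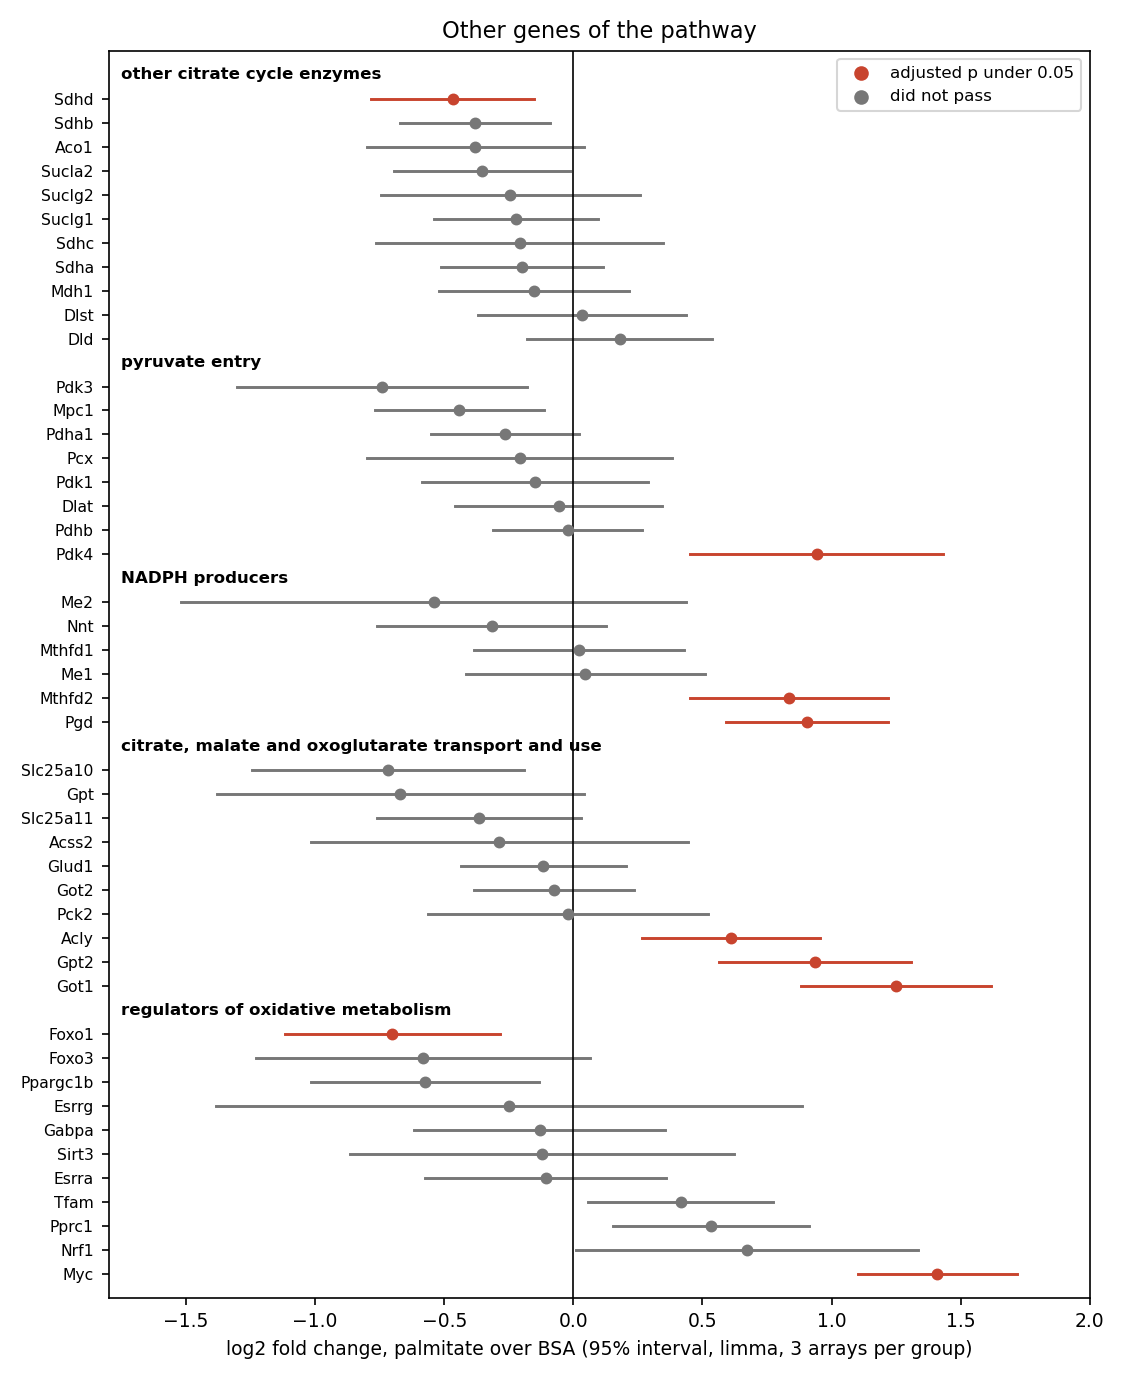
Log2 fold change (palmitate over BSA) with its 95% interval from limma, 3 arrays per group, of the 46 genes tested in 5 lists around the citrate cycle, each by its brightest probe set and in red where the adjusted p is under 0.05. Of the 46, 7 rose and 2 fell, beside 7.92% and 12.3% of all 7931 genes tested. Most other citrate cycle enzymes sit slightly to the left of 0.

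The 5 genes whose signal over the 6 arrays was most like that of the brighter Idh1 probe set were Pmp22, Il15, Gng2, Cdkn2c and Mcm7, with Pearson's r of 0.996 to 0.997. All 5 fell, with log2 fold changes of -1.65 to -1.08. The 6 arrays form 2 groups, and 719 of the 7930 other genes (9.07%) reached an r of 0.9, so such a likeness is common here.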

How the data were processed

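Transcripts were measured on 6 Affymetrix mouse 430A 2.0 arrays, 3 of palmitate-treated and 3 of BSA-treated C2C12 myotubes. The authors deposited MAS 5 signal intensities, 1 per probe set, per the submitters' processing notes. Their settings, detection calls and scan dates are not given in the sources used here, so background and batches could not be examined. The number of arrays limits the precision.

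Of 22690 probe sets, 64 controls were set aside. The platform annotation gave 1 symbol to 20380 of the rest, several to 691 and none to 1555, and probe sets were named only with 1 symbol. Symbols were checked against RefSeq (GRCm38.p6), and 0 changed. Signals were log2 transformed, and those whose mean over the arrays exceeded the 40th percentile, equal to a signal of 267.1, were tested with limma 3.58.1 in R 4.3.3 (lmFit, eBayes with an intensity trend, two-sided). In counts of genes, each gene is represented by its brightest probe set on average over the 6 arrays (log2 scale).

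Named genes are the 9 members, up to 4 genes past the threshold per list by the smallest p, and the 5 genes most correlated with Idh1. Aco1, Sdhb, Me1, Pdk1, Pdk2, Pdk3, Actn2, Ppargc1a, Mki67, Myod1 and Pdgfrb were named after their values were seen. Members and lists were chosen with earlier results of these data known. Alternatives were other scalings, filters, an offset, no trend, a replicate block, averaged probe sets and leaving out each array.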

Additional observations from a re-analysis of the deposited data

How the results depend on the processing

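The falls of both Idh1 probe sets and of Idh2 held under every alternative run. After hybridisation control scaling 404 probe sets were higher and 3169 lower (3573 in all, 11.3% of them higher, against 44.9% of 2609 as deposited), with 9 member probe sets and 6 member genes called. Leaving out 1 array gave 1575 to 2339 calls over all probe sets (748 to 1102 higher and 827 to 1285 lower). The fewest came without BSA replicate 2. Of the members, 3 to 5 probe sets and 2 to 3 genes were then called. The share of all genes called was not computed for these settings or for hybridisation control scaling. The 8 within-array differences between Idh1 and another member kept their sign when 1 array was left out: -1.70 to -1.08 for Idh2, -2.81 to -2.47 for Idh3a, -2.50 to -2.15 for Idh3b, -2.52 to -2.04 for Idh3g, -2.57 to -2.18 for Cs, -2.48 to -1.97 for Ogdh, -2.72 to -2.35 for Mdh2 and -2.14 to -1.89 for Fh1.

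Signs turned only for values near 0, none of them called. Hybridisation control scaling gave -0.22 for Cs 1422577_at, -0.33 for Cs 1422578_at and -0.30 for Idh3a 1432016_a_at, and quantile normalization gave -0.0051 for Cs 1422578_at. Averaging probe sets gave -0.32 for Idh3a. Without 1 array the turned values were -0.063 (Cs 1422577_at, range up to 0.23), -0.011 and -0.051 (Cs 1422578_at, up to 0.052), -0.089 and -0.029 (Idh3a 1432016_a_at, up to 0.12) and 0.011 (Mdh2 1433984_a_at, down to -0.16). The turns under hybridisation control scaling follow from the 0.33 log2 units that it takes from every log2 fold change. The Idh3a average takes in its dimmer probe sets, at -0.56 and -0.43. The cause of the other turns was not tested.

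Whether the replicate numbers pair the samples is not given in the labels. The deviations of same-numbered arrays from their group means correlated at -0.23 to 0.0091. With 3 arrays per group, these values cannot settle whether a pairing exists. With the replicate block 1973 probe sets passed, as did the same 3 member probe sets. Among the other genes named, Sdhd (adjusted p = 0.124) and Foxo1 (0.0527) did not pass with the block. Sdhd also did not pass with median centring (0.0795) or 75th percentile centring (0.0534), nor without the intensity trend (0.0887), where Acly (0.0546) and Foxo1 (0.0507) did not pass either. With the filter at the 60th percentile Idh3b 1418885_a_at passed (0.0422). No detection calls were used, so the distance of dim probe sets from background was not assessed.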
